A study of Thermothelomyces thermophilus ATCC 42464 with 4 samples.

Results

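The loci described here were the 29 rows of the expression table whose identifiers begin with BGI_novel_G, out of 8716 rows in all. The other 8687 rows carry a locus tag or gene symbol of the *Myceliophthora thermophila* ATCC 42464 reference annotation, and all 8687 have an entry in RefSeq's gene table for assembly ASM22609v1. None of the 29 loci has one. They were therefore taken as transcribed loci that the reference annotation does not hold, and are called unannotated loci below. Their identifiers are numbered between 1 and 30, and the order of these numbers was given no meaning.

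Transcript levels came from 4 RNA-seq libraries. Of these, 2 are labelled ΔMtTrh-1, a deletion of *MtTrh-1* in strain ATCC 42464, and 2 are MtWT, the wild-type ATCC 42464. Mycelia of both strains were pregrown for 16 h in Vogel's salts with 2% glucose at 45°C, washed, and shifted for 4 h to 2% Avicel, a crystalline cellulose. MtTrh-1 was taken to be MtTRC-1, a zinc finger transcription factor, which was not tested. By the methods of the study, the deletion strain of *Mttrc-1* carries a P*trpC*-*neo* resistance cassette at the locus and was selected as a transformant of MtWT after Cas9 cleavage, so it differs from MtWT by the cassette as well. The labels do not say whether a strain's 2 libraries stem from separate cultures. The methods of the study describe independent biological replicates, but more of them per strain than the 2 libraries here, and name another deposit. Whether this holds for these 4 libraries is not known, so the p-values measure only the spread between libraries, which may be technical.

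A genome annotation of a filamentous fungus is built largely from predicted coding sequences. Transcripts that such a prediction misses include short secreted proteins, long noncoding RNAs, antisense transcripts and pieces of untranslated regions of neighboring genes. When reads are assembled into transcripts, a stretch covered by reads outside every gene model is given a provisional name. A provisional name alone does not say which of these kinds a locus is. In cellulose-degrading fungi, transfer from glucose to cellulose changes the transcription of a large part of the genome, with genes for secreted cellulases among the most strongly induced. How the 29 loci were called is not given in the sources used here, and neither their sequences nor their positions were used here, so no function is given to any of them.

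The level of *Mttrc-1* can check the labels only if MtTrh-1 is MtTRC-1 and the deletion removed the whole gene. *Mttrc-1* (MYCTH_90344) had 215.45 and 223.41 FPKM (fragments per kilobase of transcript, scaled to the mapped fragments of the library) in the libraries labelled ΔMtTrh-1, against 13.29 and 14.47 FPKM in the MtWT libraries. A strain without any part of *Mttrc-1* would have no reads of it. A wrong label, MtTrh-1 being another gene, and reads from a part of *Mttrc-1* left beside the cassette cannot be told apart here. Whether the reads come from an intact transcript was not tested. Every direction given here is therefore that of the labels. FPKM summed to between 725984 and 741923 in the 4 libraries. The number of fragments behind an FPKM value was not recovered, and the lengths of the unannotated loci were not used here.

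The median level of the unannotated loci lay below that of annotated genes in each of the 4 libraries, by little beside the spread among genes. It was 14.66 and 12.29 FPKM in the libraries labelled ΔMtTrh-1 and 11.16 and 11.53 FPKM in the MtWT libraries. For annotated genes the median was 14.99 and 14.81 FPKM in the libraries labelled ΔMtTrh-1 and 14.16 and 14.19 FPKM in MtWT. By the mean of the 4 libraries, the lower and upper quartiles were 2.50 and 40.5 FPKM for the loci, and 4.00 and 43.5 FPKM for annotated genes.

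Nearly all of the loci were expressed at 1 FPKM or more in both strains. By the mean of a strain, 26 of 29 loci (89.7%) reached this level in the libraries labelled ΔMtTrh-1 and 27 of 29 (93.1%) in MtWT. Among annotated genes, 85.8% reached it in the libraries labelled ΔMtTrh-1 and 85.9% in MtWT. The locus that made the difference between these means was BGI_novel_G000020. It had 1.17 and 0.67 FPKM in the libraries labelled ΔMtTrh-1, against 3.08 and 3.80 FPKM in MtWT. By library there was no such difference, with 27 and 26 loci at 1 FPKM or more in each strain. At 5 FPKM or more there were 18 loci in each strain, or 62.1%. Among annotated genes the share was 71.5% in the libraries labelled ΔMtTrh-1 and 71.3% in MtWT. None of the 29 loci was listed at 0 in any library, whereas 350 to 372 annotated genes were at 0 in a given library. A locus that is named from reads needs reads to be listed. Neither the absence of zeros nor the larger share at 1 FPKM or more is therefore a finding about these loci.

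**Figure D1:**
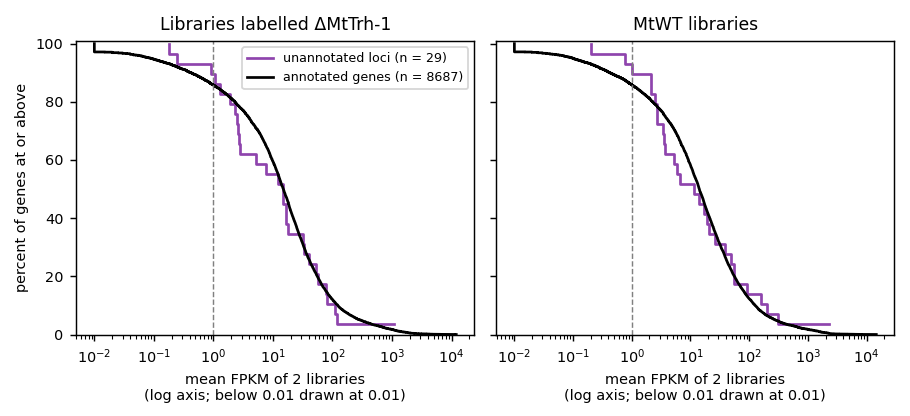
Percent of unannotated loci (purple) and of annotated genes (black) at or above a given mean FPKM, in the libraries labelled ΔMtTrh-1 (left) and in MtWT (right), on a log axis with a dashed line at 1 FPKM. Of the 29 loci, 89.7% were at 1 FPKM or more in the libraries labelled ΔMtTrh-1 and 93.1% in MtWT. Of the 8687 annotated genes it was 85.8% and 85.9%. At 5 FPKM or more it was 62.1% of the loci in each strain, against 71.5% and 71.3% of annotated genes. A locus named from reads needs reads to be listed, so its larger share at 1 FPKM is not a finding.

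Levels differed among the loci by nearly 4 orders of magnitude. BGI_novel_G000028 was the most abundant by far, with a mean of 1668 FPKM over the 4 libraries. It ranked 74th of all 8716 genes. Its level was above that of 99.2% of annotated genes. The next was BGI_novel_G000009, with a mean of 197 FPKM, followed by BGI_novel_G000019 with 158 FPKM and BGI_novel_G000014 with 134 FPKM. These 4 were the only loci with a mean of 100 FPKM or more. A further 11 lay between 10 and 100 FPKM, and 12 between 1 and 10 FPKM. As shares of the 29 loci these are 13.8%, 37.9% and 41.4%, against 12.4%, 47.1% and 26.9% of annotated genes.

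The remaining 2 loci had a mean below 1 FPKM and were not tested. They are named here after their values were seen, as are BGI_novel_G000004 below and all further loci outside the rule for named genes. BGI_novel_G000003 had 0.12 and 0.37 FPKM in the libraries labelled ΔMtTrh-1 and 0.83 and 0.72 FPKM in MtWT. BGI_novel_G000030 had 0.16 and 0.20 FPKM in the libraries labelled ΔMtTrh-1 and 0.21 and 0.20 FPKM in MtWT. Just inside the filter was BGI_novel_G000004, at 1.04 and 1.06 FPKM in the libraries labelled ΔMtTrh-1 and 1.08 and 0.92 FPKM in MtWT.

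**Figure D2:**
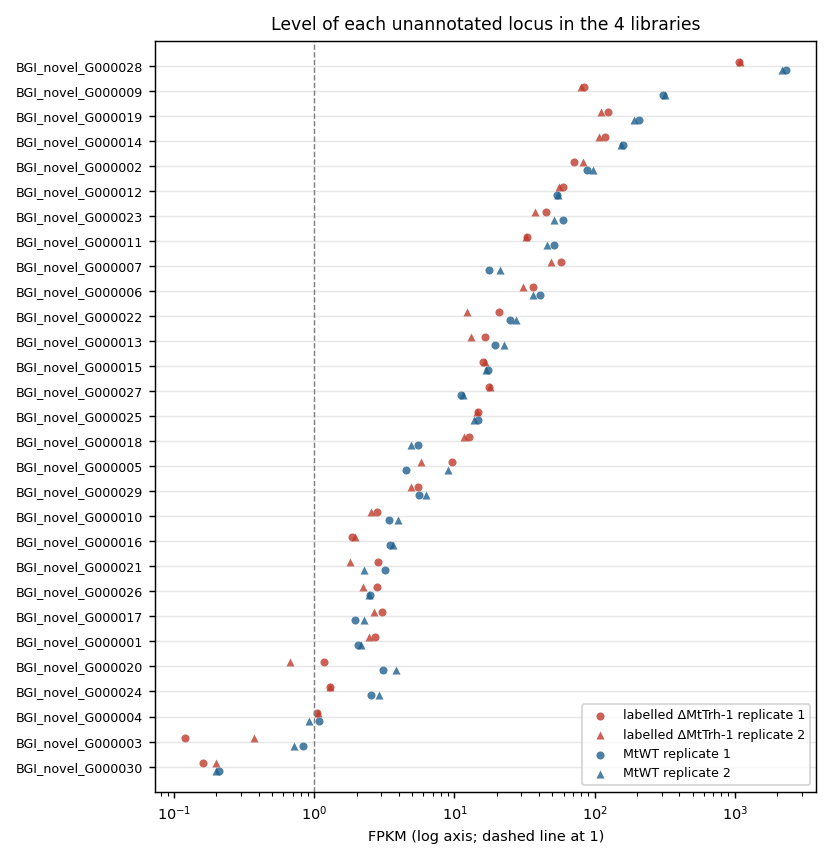
FPKM of each of the 29 unannotated loci in the 4 libraries, on a log axis, ordered by mean level (libraries labelled ΔMtTrh-1 in red, MtWT in blue, circles for replicate 1 and triangles for replicate 2, dashed line at 1 FPKM). BGI_novel_G000028 stands apart at the top, at 1064.61 to 1094.52 FPKM in the libraries labelled ΔMtTrh-1 and 2184.41 to 2328.07 FPKM in MtWT, and 2 loci lie below 1 FPKM in every library.

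To compare the strains, log2(FPKM + 1) was tested with limma over 7525 genes whose mean reached 1 FPKM, 27 of them unannotated loci. Calls required a Benjamini-Hochberg adjusted p under 0.05 over all 7525 genes together with a log2 fold change larger than 1 in size. On this scale the change of a low gene is understated. Of the 27 loci, 5 were called, against 10.3% of all genes tested. Higher in the libraries labelled ΔMtTrh-1 were 2 loci, against 5.3% of all genes tested, and 3 loci were lower, against 4.96%. As shares of the 27 loci these are 18.5% called, 7.41% higher and 11.1% lower. They rest on few loci, and no difference from the other genes was read from them. Direction is that of the labels, and *Mttrc-1* itself was among the genes higher in the libraries labelled ΔMtTrh-1.

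BGI_novel_G000009 had the largest difference of the 27 loci. Its values were 83.89 and 80.20 FPKM in the libraries labelled ΔMtTrh-1, against 306.47 and 316.75 FPKM in MtWT. The libraries of the strains did not overlap, and the 2 values of a strain differed by 1.05-fold in the libraries labelled ΔMtTrh-1 and by 1.03-fold in MtWT. The log2 fold change was -1.91 (standard error, SE, 0.05, 95% interval -2.02 to -1.80, limma adjusted p = 1.8e-09), and the mean in MtWT was 3.80-fold that of the libraries labelled ΔMtTrh-1.

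BGI_novel_G000028, the most abundant locus, was also lower in the libraries labelled ΔMtTrh-1, the ones with more *Mttrc-1* FPKM. Its values there were 1064.61 and 1094.52 FPKM, against 2328.07 and 2184.41 FPKM in MtWT. Both libraries of each strain were close, and the strains were far apart beside that spread. Its log2 fold change was -1.06 (SE 0.06, limma adjusted p = 2.3e-07). The 95% interval, -1.19 to -0.94, includes the fold threshold, so the call rests on a value just inside it.

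The third lower locus was BGI_novel_G000020, at 0.920 ± 0.354 FPKM in the libraries labelled ΔMtTrh-1 and 3.44 ± 0.51 FPKM in MtWT (SD, n = 2 each). All 4 values are low, and the libraries labelled ΔMtTrh-1 differed from each other by 1.75-fold. Its log2 fold change was -1.22 (SE 0.16, 95% interval -1.59 to -0.85, limma adjusted p = 1.4e-04). On plain FPKM the MtWT mean was 3.74-fold that of the libraries labelled ΔMtTrh-1, close to the ratio of BGI_novel_G000009, which shows how far the pseudocount shrinks a locus at this level. With a pseudocount of 5 the log2 fold change was -0.51 and the locus was not called. With a pseudocount of 0.1 it was -1.83.

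Of the 2 loci that were higher, BGI_novel_G000007 had the larger difference, in the direction of the *Mttrc-1* FPKM. Its values were 57.60 and 48.62 FPKM in the libraries labelled ΔMtTrh-1, against 17.55 and 21.04 FPKM in MtWT. Both libraries labelled ΔMtTrh-1 lay above both MtWT libraries. The log2 fold change was 1.42 (SE 0.10, 95% interval 1.19 to 1.64, limma adjusted p = 1.6e-06), a ratio of means of 2.75.

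BGI_novel_G000018 had 12.79 and 11.63 FPKM in the libraries labelled ΔMtTrh-1, against 5.51 and 4.89 FPKM in MtWT, again without overlap. Its log2 fold change was 1.09 (SE 0.09, limma adjusted p = 6.2e-06), with a 95% interval of 0.88 to 1.30 that includes the fold threshold. With a pseudocount of 5 the log2 fold change was 0.75 and the locus was not called. Among the 5 loci called, the whole interval lay beyond the threshold for BGI_novel_G000009 and BGI_novel_G000007 and for no other.

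**Figure D3:**
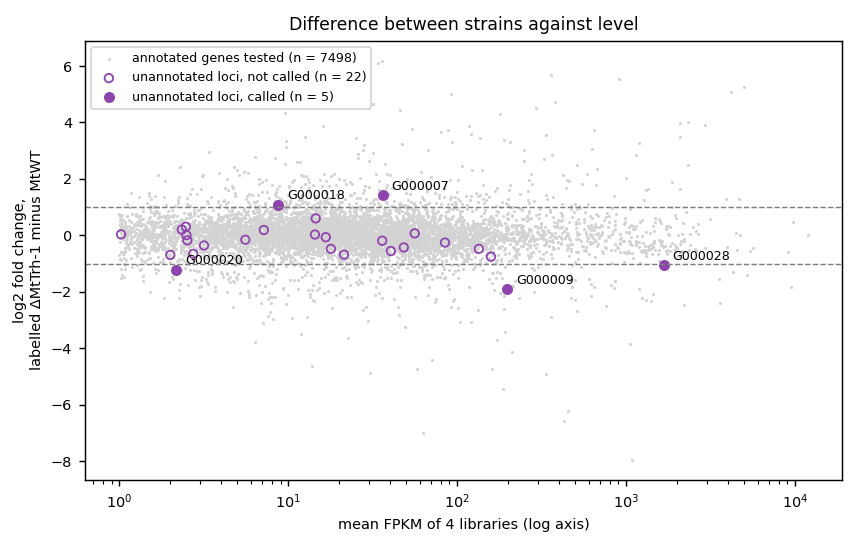
Log2 fold change between the libraries labelled ΔMtTrh-1 and MtWT against mean FPKM on a log axis, for the 7498 annotated genes tested (grey) and the 27 unannotated loci tested (open purple when not called, filled when called and marked with the end of the identifier). Dashed lines mark a log2 fold change of 1 in size, beyond which lie BGI_novel_G000007 and BGI_novel_G000018 above and BGI_novel_G000009, BGI_novel_G000020 and BGI_novel_G000028 below.

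Among the loci, lower levels in the libraries labelled ΔMtTrh-1 outnumbered higher ones once the fold threshold was left aside. With no fold threshold, 13 of the 27 loci were lower at an adjusted p under 0.05, against 31.3% of all genes tested, and 3 were higher, against 34.2% (limma). The count of lower loci was 10 without MtWT replicate 2, where BGI_novel_G000002, BGI_novel_G000010 and BGI_novel_G000022 dropped out, and 9 with a mean of at least 5 FPKM, where 4 of the 13 were not tested. It was 12 to 14 in the other alternatives. The count of higher loci was 5 without the intensity trend, with BGI_novel_G000001 and BGI_novel_G000017 added, and 3 or 4 in the other alternatives. The libraries of the strains did not overlap for 15 loci that were lower, against 39% of all genes tested, and for 6 that were higher, against 43.8%. The log2 fold change was below 0 for 17 of 27 loci and for 47.4% of all genes tested. Its median was -0.19 over the loci and 0.03 over all genes tested. Leaving out replicate 1 labelled ΔMtTrh-1 took the median of the loci to -0.31, and leaving out replicate 2 took it to -0.09, so its size rests on which of these libraries is used while its sign was kept. The loci were described by these counts alone, since genes within a library are not replicates.

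Of the 13 lower loci, 10 were short of the fold threshold. BGI_novel_G000019 was the nearest to it, at 123.65 and 111.71 FPKM in the libraries labelled ΔMtTrh-1, against 208.41 and 189.99 FPKM in MtWT, a log2 fold change of -0.75 (SE 0.07, limma adjusted p = 7.2e-06). BGI_novel_G000024 came next, at 1.29 and 1.30 FPKM in the libraries labelled ΔMtTrh-1, against 2.55 and 2.88 FPKM in MtWT. The log2 fold change was -0.69 (limma adjusted p = 0.0011), although the means differed 2.10-fold, slightly more than those of BGI_novel_G000028. With a pseudocount of 0.1 it was called, at -1.01.

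Among the more abundant of these loci, BGI_novel_G000014 had 117.83 and 106.51 FPKM in the libraries labelled ΔMtTrh-1, against 158.15 and 154.32 FPKM in MtWT (log2 fold change -0.48). BGI_novel_G000011 had 32.82 and 32.34 FPKM in the libraries labelled ΔMtTrh-1, against 50.98 and 45.73 FPKM in MtWT (-0.55). BGI_novel_G000023 had 44.68 and 37.48 FPKM in the libraries labelled ΔMtTrh-1, against 59.77 and 51.26 FPKM in MtWT (-0.43). In each of these loci both libraries labelled ΔMtTrh-1 were below both MtWT libraries. For BGI_novel_G000002 the strains were nearer, with 71.30 and 83.05 FPKM in the libraries labelled ΔMtTrh-1, against 87.58 and 96.52 FPKM in MtWT (-0.25, limma adjusted p = 0.017). Its adjusted p was above 0.05 in 4 of 12 alternatives, at 0.055 with no filter on the mean, 0.060 without the intensity trend, 0.151 without replicate 1 labelled ΔMtTrh-1, where the log2 fold change was -0.15, and 0.124 without MtWT replicate 2 (limma). The other 4 of these 10 loci, at mean levels of 2.74 to 21.4 FPKM, included BGI_novel_G000016, at 1.86 and 1.96 FPKM in the libraries labelled ΔMtTrh-1, against 3.49 and 3.65 FPKM in MtWT. The single locus higher at an adjusted p under 0.05 and short of the fold threshold was BGI_novel_G000027, at 17.51 and 17.96 FPKM in the libraries labelled ΔMtTrh-1, against 11.16 and 11.53 FPKM in MtWT (0.60).

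The other 11 loci had an adjusted p above 0.05. BGI_novel_G000012 was the most abundant of them, at 59.49 and 55.44 FPKM in the libraries labelled ΔMtTrh-1 and 54.25 and 54.99 FPKM in MtWT, a log2 fold change of 0.07 with a 95% interval of -0.06 to 0.20. For BGI_novel_G000025, at 14.66 and 14.45 FPKM in the libraries labelled ΔMtTrh-1 and 14.60 and 13.87 FPKM in MtWT, the interval was -0.13 to 0.19. A change of the size of the fold threshold lay outside both intervals. The widest interval was that of BGI_novel_G000005, -0.41 to 0.79. That locus had 9.52 and 5.75 FPKM in the libraries labelled ΔMtTrh-1 and 4.49 and 8.93 FPKM in MtWT. Its MtWT libraries differed 1.99-fold, more than the means of the strains, which differed 1.14-fold.

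**Figure D4:**
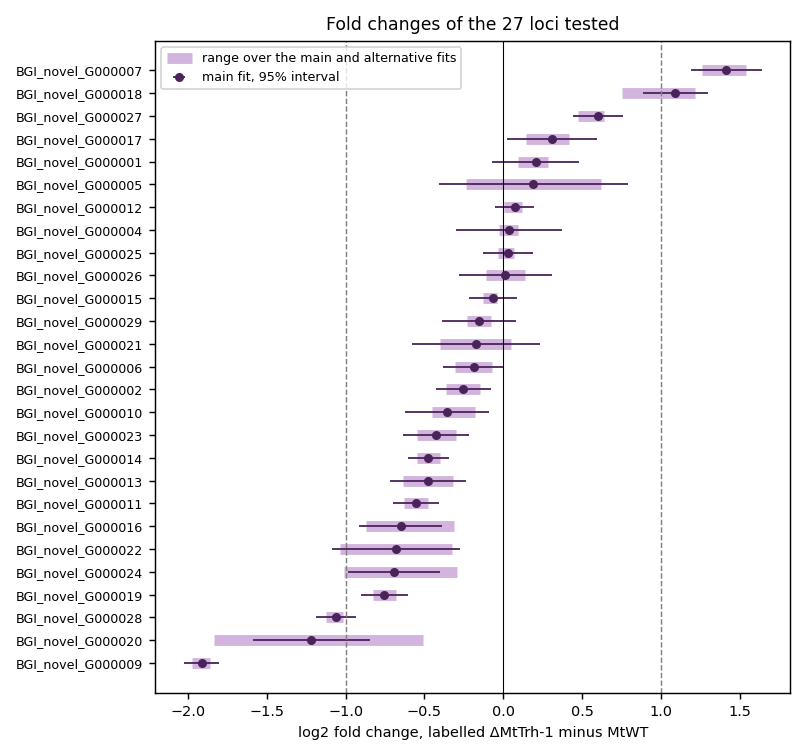
Log2 fold change (libraries labelled ΔMtTrh-1 minus MtWT) of the 27 unannotated loci tested, with the 95% interval of the limma fit (dark line) and the range over this fit and its alternatives (pale bar), and dashed lines at 1 in size. BGI_novel_G000007 lies at 1.42 and BGI_novel_G000009 at -1.91 with intervals clear of the dashed lines, whereas the pale bar of BGI_novel_G000020 runs between -1.83 and -0.51.

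By medians, the libraries of a strain differed more for the unannotated loci than for annotated genes of like level, in both strains, wherever the mean was 1 FPKM or more, and no test was made of this. The SD of the differences did not follow the medians throughout. It was smaller for the loci at 1 to 10 FPKM in the libraries labelled ΔMtTrh-1, at 0.21 against 0.25 for annotated genes, and at 100 FPKM or more in MtWT, at 0.08 against 0.10. For the 11 loci with a mean of 10 to 100 FPKM, the median size of the log2 difference between the 2 libraries labelled ΔMtTrh-1 was 0.22, against 0.06 for the 4090 annotated genes in this range. Between the 2 MtWT libraries it was 0.14 for these loci and 0.07 for the annotated genes. For the 12 loci between 1 and 10 FPKM it was 0.13 in the libraries labelled ΔMtTrh-1 and 0.15 in MtWT, against 0.11 in each strain for 2333 annotated genes. For the 4 loci at 100 FPKM or more it was 0.10 in the libraries labelled ΔMtTrh-1 and 0.07 in MtWT, against 0.05 and 0.06 in the same libraries for 1075 annotated genes. The exception was the pair of loci below 1 FPKM, at 0.17 in the libraries labelled ΔMtTrh-1 and 0.05 in MtWT, against 0.10 in each strain for annotated genes. FPKM alone do not give the number of fragments, which depends also on a length that was not used here. Whether the loci rest on fewer fragments than annotated genes of the same FPKM was not tested.

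The 2 libraries labelled ΔMtTrh-1 differed in the same direction for most loci. Among the 27 loci tested, 20 were higher in replicate 1 than in replicate 2 of the libraries labelled ΔMtTrh-1, a share of 74.1%, against 52.9% of annotated genes. The median difference was 0.13 on the log2 scale for the loci and 0.01 for annotated genes. In MtWT, 12 of the 27 loci (44.4%) were higher in replicate 1, against 52.8% of annotated genes. Median differences there were -0.04 for the loci and 0.01 for annotated genes. BGI_novel_G000022 had the largest gap between the 2 libraries labelled ΔMtTrh-1 on the log2(FPKM + 1) scale, with 20.71 and 12.29 FPKM in the libraries labelled ΔMtTrh-1, against 25 and 27.53 FPKM in MtWT. The log2 fold change was -0.68 (SE 0.18, limma adjusted p = 0.0083). Without replicate 1 labelled ΔMtTrh-1 it was -1.04 and the locus was called, which made 4 lower loci.

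**Figure D5:**
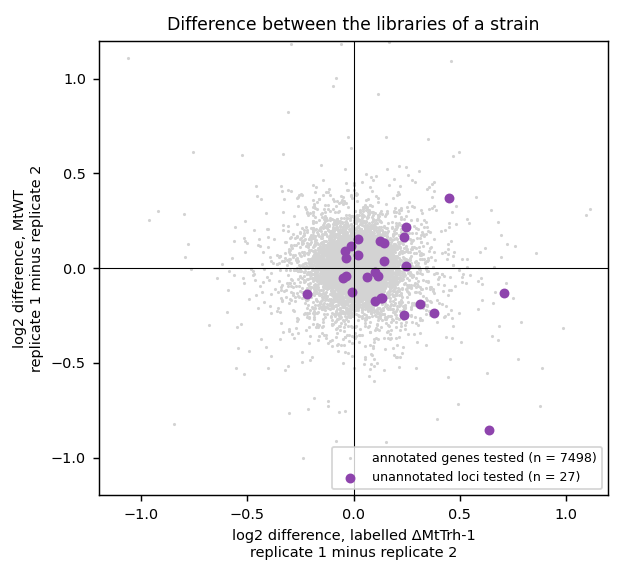
Log2(FPKM + 1) difference between replicate 1 and replicate 2 of the libraries labelled ΔMtTrh-1 (x axis) and of MtWT (y axis), for 7498 annotated genes tested (grey, 11 of them outside the axes) and the 27 unannotated loci tested (purple). Of the loci, 20 lie to the right of 0 on the x axis and 12 lie above 0 on the y axis.

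Together the 29 loci took a small share of the summed FPKM. It was smaller in the libraries labelled ΔMtTrh-1, the ones with more *Mttrc-1* FPKM. The share was 0.2503% and 0.2472% in those libraries, against 0.4636% and 0.4462% in MtWT. The difference between the means was -0.206 percentage points. It exceeds the spread between the libraries of a strain, with SDs of 0.0022 and 0.0123 percentage points, but an exact two-sided permutation test of 2 against 2 libraries gave p = 0.33, which is the smallest it can give. BGI_novel_G000028 alone made up 58.3% and 61.0% of the FPKM of the loci in the libraries labelled ΔMtTrh-1, against 67.7% and 66.4% in MtWT. Without it the share of the other 28 loci was 0.1004% in the libraries labelled ΔMtTrh-1 and 0.1498% in MtWT, a difference of -0.049 percentage points. Among these 28 loci, BGI_novel_G000009 had means of 82.0 FPKM in the libraries labelled ΔMtTrh-1 and 312 FPKM in MtWT. The share without it as well was not computed, so the gap may not be spread over the loci.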

How the data were processed

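RNA-seq libraries of *M. thermophila* mycelia, 2 labelled ΔMtTrh-1 and 2 MtWT, were grouped by the genotype in the labels. The authors deposited 1 FPKM value per gene and library, to 2 decimals. HISAT and Bowtie2 appear in the submitters' processing notes, without versions. No quantifier, genome build or procedure behind the BGI_novel_G rows is stated in the sources used here. The methods of the study describe TopHat, counts and DESeq2, which were not used here, because FPKM are not counts.

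From the deposited FPKM, log2(FPKM + 1) was fitted with limma 3.58.1 in R 4.3.3 for genes whose mean reached 1 FPKM. The fit used an intensity trend and no covariate, with Benjamini-Hochberg adjustment over all 7525 genes tested. On simulated data, with 200 genes changed out of 7506, it recovered 100% of those changed 3-fold and 100% of those changed 6-fold, with 0 false calls. The simulated noise was that between libraries of a strain. The changed genes were drawn only from those with a mean log2(FPKM + 1) above 3. Recovery at lower levels, such as that of BGI_novel_G000020 (mean 2.18 FPKM), was not measured. Nor was recovery of smaller changes, such as that of BGI_novel_G000028 (2.09-fold). The unchanged genes were simulated with no difference, so the count of false calls says nothing on differences just short of the fold threshold. The members and tests were chosen with earlier results of these data known. Named were every called locus, the 8 most abundant, the 2 nearest the fold threshold on each side, and *Mttrc-1*. Loci listed at 0 in 1 strain only would have been named, and there were none. Others were named after their values were seen. Depth is unknown. Among genes at or below 0.1 FPKM in a pair of libraries, the median ratio of values was 1 in each pair. The labels do not say that a replicate number marks a shared culture, so the numbers were not taken as pairs. Same-numbered libraries did not deviate together (r = -0.02 across 7525 genes). Genes within a library are not replicates, so this r cannot decide the pairing. The fits were repeated with other pseudocounts, filters, scalings and fold thresholds, without the trend, with a replicate block, and without each library in turn. Plots were drawn with matplotlib 3.10.9.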

Additional observations from a re-analysis of the deposited data

How the results depend on the processing

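Of 142 alternative values for the 12 loci named by rule, 139 left the locus called or not called as before by both thresholds together. None turned its direction. Among the loci outside the rule, the sign was not kept in every fit for BGI_novel_G000004, BGI_novel_G000005, BGI_novel_G000021, BGI_novel_G000025 and BGI_novel_G000026. The log2 fold change of BGI_novel_G000005 ran between -0.24 and 0.62. By the adjusted p alone, BGI_novel_G000002 was above 0.05 in 4 of 12 alternatives. BGI_novel_G000018 (0.75) and BGI_novel_G000020 (-0.51) were no longer called with a pseudocount of 5, and BGI_novel_G000024 was called with 0.1 (-1.01). With a pseudocount of 5, 493 genes and 1 higher locus were called in place of 772 and 2, and 2 loci were lower. With no fold threshold, 4926 genes and 13 lower loci were called, and with a log2 fold change beyond 2 in size, 180 genes, 0 higher loci and 0 lower loci (limma). The median log2 fold change of the loci ranged between -0.306 and -0.087 when each library was left out, with both ends set by the libraries labelled ΔMtTrh-1. The difference in share of FPKM was -0.049 percentage points without BGI_novel_G000028, in place of -0.206, and the cause of these shifts beyond the choice itself was not tested.

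With the replicate block, 773 genes, 2 higher loci and 3 lower loci were called, so no count of loci moved. Without replicate 1 labelled ΔMtTrh-1, 4 loci were lower in place of 3, with BGI_novel_G000022 added, and the counts of higher loci stayed at 2 without any 1 library. BGI_novel_G000020 and BGI_novel_G000024 were not tested with a mean of at least 5 FPKM. Setting the libraries to a common median over annotated genes left the counts at 2 higher and 3 lower loci, as did rescaling FPKM to a common sum. The fragments behind each value are unknown, so loci near 1 FPKM have no counting interval.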
